A study of Homo sapiens with 12 samples.

Results

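A set of 1484 short stretches of the genome carried a BrdU signal in H1 human embryonic stem cells after knockdown of EP300 and CREBBP, and in none of the 3 other BrdU lists of the study. They were the regions of the H1 knockdown list that overlapped, by at least 1 bp, no region listed for H1 control cells, for IMR90 or for Saos-2. They made up 1484 of the 1755 regions of the knockdown list (84.6%, Wilson 95% interval 82.8 to 86.2) and are called knockdown-only regions or members below. The remaining 271 knockdown regions overlapped at least 1 other list. Membership was thus fixed by the BrdU lists themselves, and everything said of the absence of these regions elsewhere is a description and not a test.

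BrdU is a thymidine analogue that cells build into newly made DNA, so that DNA pulled down with a BrdU antibody marks places that were being copied. Human replication starts at many sites with little shared sequence, and open, acetylated chromatin is generally copied early in S phase. EP300 and CREBBP encode the related acetyltransferases p300 and CBP, which acetylate several histone lysines, among them lysine 18 of histone H3. H3K18ac is found mainly at active promoters and enhancers.

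The knockdown cells were H1 cells in mTESR1 medium that received siRNAs against EP300 and CREBBP with the transfection reagent DharmaFECT 1, and 10 µM HA 1077 in the medium. The H1 control cells received the same amount of a non-targeting siRNA and the same additive, and both were collected at 72 h. IMR90, a line of lung fibroblasts, and Saos-2, an osteosarcoma line, were grown in DMEM with serum and received no siRNA, so these lists differ from the knockdown list in cell type, medium and treatment. H3K18ac was mapped in H1 and IMR90 cells without siRNA. Each list came from 1 library, so the spread between repeats of a culture is unknown and no p-values are given. The level of EP300 and CREBBP after the siRNA treatment was not analysed here. The intervals cover the counting of regions only, and neighbouring regions are not independent of each other.

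The knockdown list was short, with 1755 regions against 5086 in H1 control, 5743 in IMR90 and 6272 in Saos-2. Regions found in a single BrdU list were common in every list, but less so outside the knockdown. Of the H1 control regions 3145 (61.8%, 60.5 to 63.2) overlapped none of the other BrdU lists. The same held for 4019 regions of IMR90 (70.0%, 68.8 to 71.2) and 4010 of Saos-2 (63.9%, 62.7 to 65.1). When the other lists were reduced to their 1755 regions of highest score, while the knockdown list kept all of its own, 1536 knockdown regions (87.5%, 85.9 to 89.0) stood alone, against 398 in H1 control (22.7%), 690 in IMR90 (39.3%) and 570 in Saos-2 (32.5%). Only the other lists were limited to their strongest regions by this, and in the top 351 of the knockdown list by score the share that stood alone was 32.2% against the full lists. Of the 271 knockdown regions that were shared, 229 lay in Saos-2, 159 in H1 control and 83 in IMR90. Among them 53 were found in all 3 of these lists, 87 in Saos-2 alone and 28 in H1 control alone.

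Knockdown-only regions were the small and low-scoring end of their list. They covered 166 kb in all, and 1347 of them (90.8%) spanned a single 100 bp window, the smallest unit of the lists. Another 111 spanned 2 windows, 19 spanned 3, 5 spanned 4, and the longest 2 measured 500 bp. Of the other knockdown regions 58.7% were single windows. The score that the authors gave each region, a whole number whose meaning is not stated, had a median of 33 in members (quartiles 27 and 45, range 7 to 541). In the other knockdown regions its median was 177 (quartiles 113 and 287, range 22 to 1685). Among single windows alone the medians were 32 in members and 128 in the other knockdown regions, so the scores differed at equal length too.

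The share of members fell steeply only at the top of the scores. When the knockdown list was divided by score into 5 equal groups, 350 of 351 regions were members in each of the lowest 2, then 345, then 326 (92.9%), and 113 (32.2%, 27.5 to 37.3) in the highest. None of the 10 highest-scoring knockdown regions was a member, 1 of the top 50 was, and 6 of the top 100. A further 143 members scored below 22, the lowest score of any shared knockdown region.

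**Figure D1:**
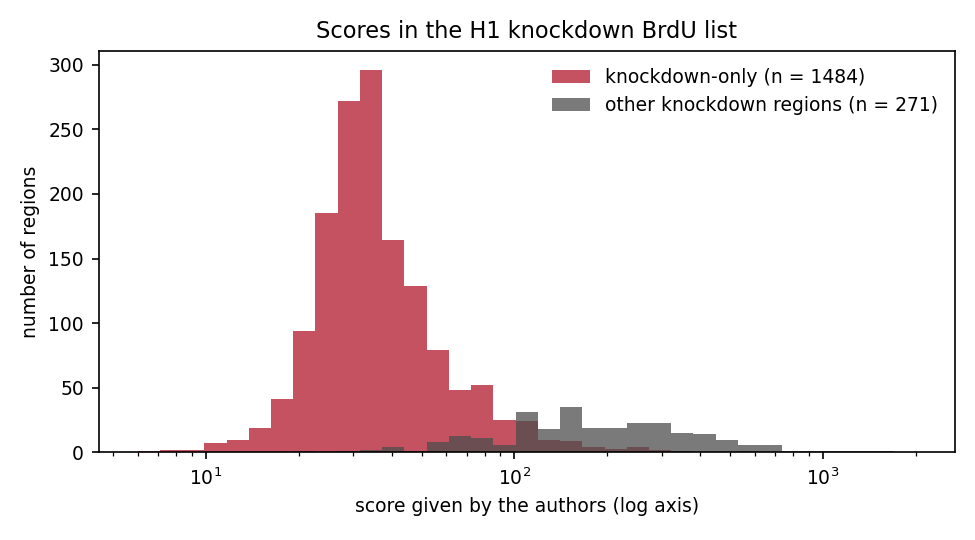
Number of regions (vertical axis) by the authors' score (horizontal log axis) in the H1 knockdown BrdU list, for the 1484 knockdown-only regions (red) and the 271 other knockdown regions (grey). The members form a narrow peak around their median of 33, and the other regions a broad one around 177.

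Scores were not on an equal footing between chromosomes. The lowest score in the knockdown list was 16 on chromosome 13, 17 on chromosome 4, 28 on chromosome 20 and 32 on chromosome 19, with a median of 21 over the 22 autosomes. The lowest scores of the H1 control list ranged from 15 to 28 and followed a like order (Spearman correlation 0.83 across 22 autosomes), as did those of IMR90 (16 to 27, 0.86). Those of Saos-2 ranged from 8 to 14 and followed it with a lower correlation (0.31). The typical member moved with this floor: single-window members had a median score of 27 on chromosome 13 and 50 on chromosome 19. Only 1 of the 742 members in the upper 50% by score lay on X or Y, where 88 of all 1484 members lay. How the authors set the threshold is not given in the sources used here. Any ranking of members by score across chromosomes carries this difference, so counts by score are also given below with members ranked within their own chromosome.

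The 10 members of highest score, which ranged from 219 to 541, fell into 2 kinds. Each was 200 to 400 bp long. None overlapped H3K18ac in H1 or IMR90, but neither did 1439 of all 1484 members. The first kind, with 5 members, lay over 10 kb from any region of another BrdU list, as did 1187 of all 1484 members. The median gap over all members was 50.7 kb. The top member, on chromosome 10 at 119997401 to 119997800 (hg19), had a score of 541 and ranked 18 in the knockdown list. Its nearest neighbours in Saos-2 and H1 control lay 44.5 and 44.6 kb away, and that in IMR90 598 kb away. The member on chromosome 20 at 49288401 to 49288600, with a score of 219, had no region of any other BrdU list closer than 165.9 kb. A further 3 members of the top 10 had gaps of 31.2 kb or more: chromosome 8 at 20378801 to 20379100, chromosome 8 at 103766801 to 103767100 and chromosome 11 at 70463101 to 70463300. That on chromosome 11 had an H1 H3K18ac region 400 bp away, and the second on chromosome 8 an IMR90 H3K18ac region 500 bp away.

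The other 5 of the top 10 lay within 1 kb of a BrdU region in another list, and 4 of them touched one without sharing a base. The member on chromosome 16 at 86621601 to 86621900, with a score of 317, began right after an H1 control region at 86621101 to 86621600 that had the same ends in IMR90. The Saos-2 region there ended 100 bp earlier. The member on chromosome 1 at 236264601 to 236264800 ended where an H1 control region at 236264801 to 236265300 and a Saos-2 region at 236264801 to 236265400 began. On chromosome 3, a member at 58638301 to 58638500 filled the gap between a Saos-2 region at 58638101 to 58638300 and an IMR90 region at 58638501 to 58638600. The member on chromosome 10 at 125730801 to 125731000 adjoined both a Saos-2 and an H1 H3K18ac region. The last, on chromosome 16 at 6422101 to 6422400, had a Saos-2 region 300 bp away.

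Such neighbours lay on both sides of the membership rule. In all, 51 members (3.44%) adjoined a region of another list with a gap of 0 bp. Just outside the rule were 6 knockdown regions covered to less than 50% by another list. Those with the smallest overlap had 100 of their 300 bp covered, such as chromosome 2 at 121130401 to 121130700, where H1 control reached in from 121130601, and chromosome 2 at 152930601 to 152930900, where H1 control and Saos-2 both began at 152930801. Their scores were 327 and 462. At the other end, 236 of the 271 left-out regions were covered completely. Adjoining was not particular to the knockdown: 193 of the 3145 regions found in H1 control alone (6.14%, 5.35 to 7.03) also adjoined a region of another BrdU list.

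Members lay closer to the BrdU regions of the other lists than an average window of the genome did. This was set against all 100 bp windows outside the 3 other lists, within the 2794 Mb of 500 kb bins that held a region in any list. Of the 1347 single-window members, 87 (6.46%) lay within 1 kb of another list, against 0.982% of windows, and 264 (19.6%) within 10 kb, against 7.72%. The ratio declined with distance, from 33.9 for adjoining windows to 6.58 at 1 kb, 2.54 at 10 kb and 1.61 at 100 kb. H1 control, the list from the same cell line, had a region within 10 kb of 151 members (10.2%, 8.74 to 11.8), against 144 (9.70%, 8.30 to 11.3) in IMR90 and 135 (9.10%, 7.74 to 10.7) in Saos-2. At 100 kb the shares were 45.4% for H1 control (42.9 to 48.0) and 40.0% for both IMR90 and Saos-2 (37.6 to 42.5). The lists differ in size, and over the windows near each list the ratio for single-window members at 10 kb was 2.98 for H1 control, 2.75 for IMR90 and 2.30 for Saos-2. At 1 kb it was 9.41, 5.54 and 7.5 in the same order, and the median gaps were 123, 160 and 161 kb. The adjoining members were most often beside Saos-2, with 34 there, 18 beside H1 control and 11 beside IMR90, and 23 of the 51 were within 1 kb of at least 2 lists. The median gap from a member to its nearest region in any of the 3 lists was 50.7 kb. Nearness was not particular to members. Within 10 kb of Saos-2 lay 17.3% of the regions found in H1 control alone and 20.0% of those found in IMR90 alone. Within 10 kb of H1 control lay 13.5% of those found in IMR90 alone and 17.1% of those in Saos-2 alone. For IMR90 the shares were 12.4% for H1 control alone and 18.3% for Saos-2 alone. Since the rule used these 3 lists, the gaps of members are a description.

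**Figure D2:**
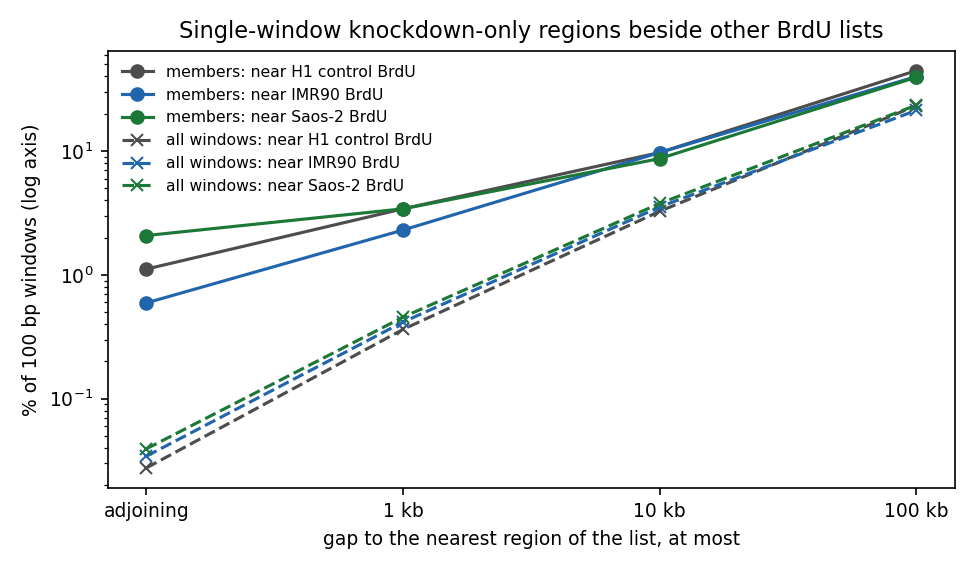
Percent of 100 bp windows (vertical log axis) with a region of H1 control, IMR90 or Saos-2 BrdU at or below the gap on the horizontal axis, for the 1347 single-window members (circles, solid lines) and for all windows outside the 3 lists (crosses, dashed lines). Members lie above the windows at every gap, most at adjoining windows, and the lines draw together towards 100 kb.

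The members beside known BrdU regions were the stronger ones. The 103 members within 1 kb of another list had a median score of 67 (quartiles 39 and 102). The 194 members at 1 to 10 kb had a median of 35, the 675 at 10 to 100 kb a median of 34, and the 512 members further than 100 kb a median of 31 (quartiles 25 and 37.3). Ranked within their own chromosome, 80 of the 736 members in the upper 50% by score lay within 1 kb of another list (10.9%, 8.82 to 13.3), against 23 of the 748 in the lower 50% (3.07%, 2.06 to 4.57). The neighbours themselves were not the weakest of their lists. The 56 H1 control regions within 1 kb of a member had a median score of 109, against 75 in the whole control list, and 30 of them (53.6%) overlapped a further BrdU list, against 38.2% of the whole. All but 1 of these 56 control regions were themselves without an overlapping knockdown region. This was not particular to them, as only 159 knockdown regions overlapped any of the 5086 control regions.

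The members were then set beside H3K18ac, which the rule did not use. Few knockdown-only regions overlapped the mark of their own cell line, and their share lay near that of the whole knockdown list. Of the 1484 members, 18 (1.21%, 0.769 to 1.91) overlapped an H1 H3K18ac region, against 14 of the 271 other knockdown regions (5.17%, 3.10 to 8.48). Over the whole knockdown list, most of which is made up of members, the share was 1.82%, within their interval. The share was 2.70% (2.19 to 3.33) of the 3145 regions found in H1 control alone, 5.30% (4.65 to 6.04) of those found in IMR90 alone and 6.76% (6.02 to 7.58) of those found in Saos-2 alone. The interval of the members overlapped none of these 4 intervals. At equal length the order was the same, with 14 of 1347 single-window members (1.04%, 0.620 to 1.74), against 6 of 159 other knockdown windows (3.77%, 1.74 to 7.99) and 66 of 2657 control-only windows (2.48%, 1.96 to 3.15). The first 2 of these intervals nearly met, at 1.737% and 1.741%. With every list, that of H3K18ac included, reduced to its upper 50% by score, membership was set anew and gave 630 members. The shares were then 1.75% in these members (0.978 to 3.10) and 2.83% in the other knockdown regions (1.38 to 5.73), and these intervals overlapped. Of all 100 bp windows 0.563% lay in the H1 H3K18ac list, so the share of single-window members was 1.84 times the genome's (1.10 to 3.08).

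The members were also lowest in their nearest surroundings, while the order of the other sets changed. Within 1 kb of an H1 H3K18ac region lay 164 members (11.1%, 9.56 to 12.7), against 83 of the other knockdown regions (30.6%, 25.4 to 36.4) and 505 control-only regions (16.1%, 14.8 to 17.4). The share was 22.3% of IMR90-only and 22.1% of Saos-2-only regions, 14.1% of the whole knockdown list and 4.87% of all windows. The median distance to H1 H3K18ac was 11.4 kb for members, 3.8 kb for the other knockdown regions and 8.1 kb for control-only regions. Scores differed too between these sets. Within chromosomes, 13 of the 736 higher-scoring members overlapped the mark (1.77%, 1.04 to 3.00) and 5 of the 748 lower-scoring ones (0.668%, 0.286 to 1.56), and their intervals overlapped. The part of score in the difference between sets was not tested.

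H3K18ac of IMR90 did not separate the sets by overlap of at least 1 bp. It overlapped 31 members (2.09%, 1.48 to 2.95), 5 other knockdown regions (1.85%, 0.791 to 4.25) and 2.05% of the whole knockdown list. The shares for regions found in H1 control, IMR90 or Saos-2 alone were 2.64% (2.13 to 3.26), 2.79% (2.32 to 3.34) and 2.52% (2.08 to 3.05), all within the interval of the members. Of all windows 1.41% lay in this list, and the share of single-window members was 1.31 times that (0.892 to 1.93). None of the 159 single-window other knockdown regions lay in it, which allows a share of up to 1.89% at a limit of 3 counts and 2.36% by the Wilson interval. Within 1 kb this mark lay at 7.61% of members (6.37 to 9.08) and 10.6% of IMR90-only regions (9.66 to 11.6). These 2 intervals did not meet. For the other knockdown, control-only and Saos-2-only regions the shares were 5.90%, 8.52% and 8.18%. Within 10 kb the share was 30.6% of members (28.3 to 33.0), above the 24.9% of Saos-2-only regions (23.6 to 26.3). It was 26.2%, 31.6% and 32.5% of other knockdown, control-only and IMR90-only regions.

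**Figure D3:**
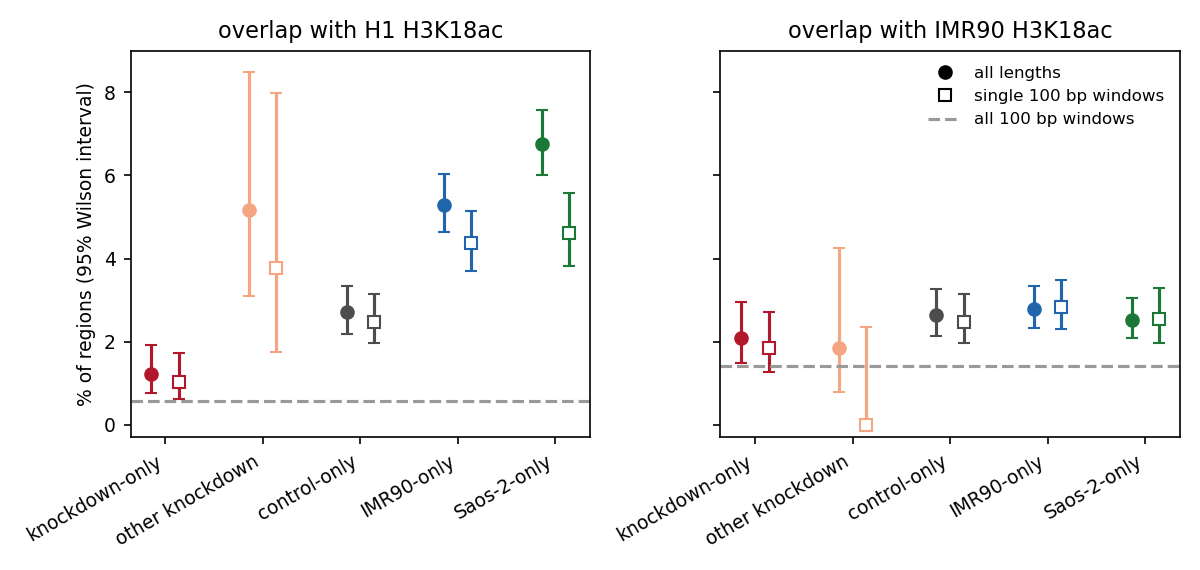
Percent of regions overlapping H1 (left) and IMR90 (right) H3K18ac, with Wilson 95% intervals, for knockdown-only regions, the other knockdown regions and regions found in a single other BrdU list. Filled circles give all lengths, open squares single 100 bp windows, and the dashed lines all 100 bp windows. In H1 the members are lowest at 1.21%. In IMR90 the filled circles of all 5 sets lie near each other, and the open square of the other knockdown regions lies at 0 of 159.

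Proximity to other BrdU regions and to H3K18ac went together among the members. An H1 H3K18ac region lay within 1 kb of 23 of the 103 members near another BrdU list (22.3%, 15.4 to 31.3). It did so for 28 of the 194 at 1 to 10 kb (14.4%, 10.2 to 20.1), for 84 of the 675 at 10 to 100 kb (12.4%, 10.2 to 15.1) and for 29 of the 512 beyond 100 kb (5.66%, 3.97 to 8.02). The interval of the last share enclosed the 4.87% of all windows, but that value covers windows at any distance from BrdU regions. The share of windows equally far from them was not computed. The 512 members beyond 100 kb made up 34.5% of the set. None of the 51 adjoining members overlapped H1 H3K18ac itself, which allows a share of up to 5.88% at 3 counts and 7.00% by the Wilson interval. The share over all members, 1.21%, lies within these limits.

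**Figure D4:**
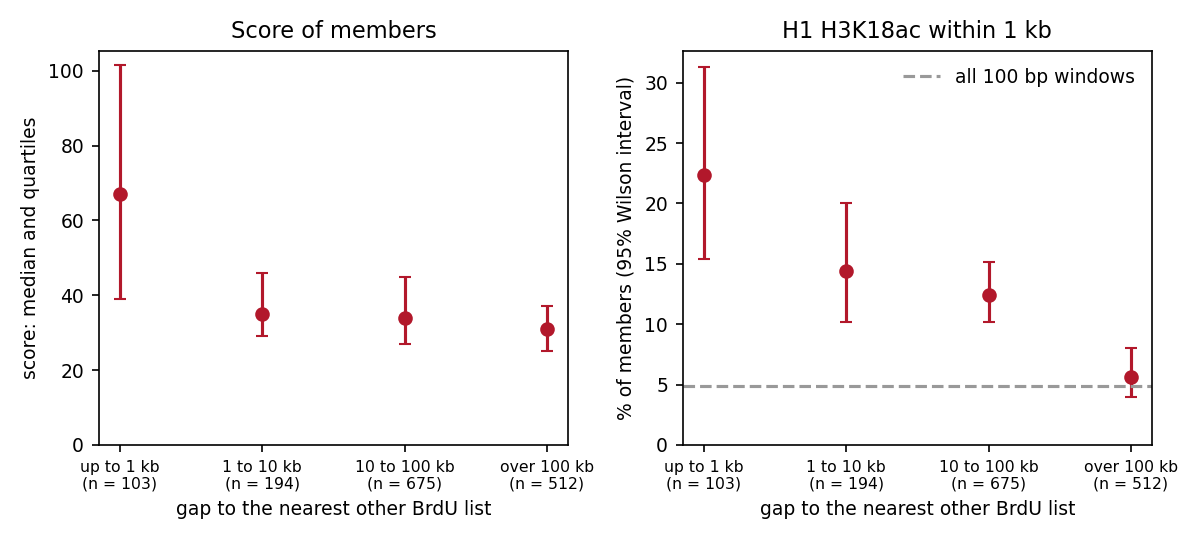
Members grouped by the gap to the nearest region of any other BrdU list. The left panel gives the score (point, median; bars, quartiles) and the right panel the percent with an H1 H3K18ac region within 1 kb (bars, Wilson 95% interval), with all 100 bp windows as a dashed line. Both are highest within 1 kb, at 67 and 22.3%, and lowest beyond 100 kb, at 31 and 5.66%.

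The 18 members with H1 H3K18ac had scores of 18 to 167, and 14 were single windows. The highest-scoring, on chromosome 11 at 62623601 to 62624000, lay at the start of an H3K18ac region of 1400 bp at 62623601 to 62625000, which ranked 167 among the 65946 of the H1 list. It was also in IMR90 H3K18ac and had an H1 control BrdU region 900 bp away. The member on chromosome 12 at 54673201 to 54673400, with a score of 86, lay inside an H3K18ac region at 54672901 to 54674200, ranked 492, and that on chromosome 7 at 151215401 to 151215600, with a score of 93, inside one at 151215301 to 151216100. Both were marked in IMR90 as well. The members on chromosome 3 at 39167901 to 39168100 and chromosome 19 at 19324801 to 19324900 overlapped single H3K18ac windows and were not marked in IMR90. In total 4 members overlapped the mark in both cell lines, 14 in H1 only, 27 in IMR90 only and 1439 in neither. Of the 18, 15 lay over 10 kb from any other BrdU list, near the share over all members, 1187 of 1484 (80.0%). The H3K18ac regions touched had a median score of 72.5 in H1, against 32 in its list, and of 189 in IMR90, against 46 in its list. Their median lengths were 300 and 800 bp, and a longer region is more easily touched.

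The density of members varied between autosomes about as much as that of control-only regions. The highest density was 2.73 times the lowest in members, against 9.19 times in the other knockdown regions, 2.68 in control-only, 7.05 in IMR90-only and 9.27 in Saos-2-only regions. This ratio depends on the size of a set, and that of the other knockdown regions rests on 2 of 266 regions on chromosome 18. Members numbered 0.529 per Mb over the autosomes, from 0.383 on chromosome 4 and 0.387 on chromosome 16 to 0.750 on chromosome 21 and 1.04 on chromosome 22. The gene-rich chromosomes 16, 17, 19, 20 and 22 held 174 of the 1396 autosomal members (12.5%, 10.8 to 14.3), against 19.9% of the other knockdown regions (15.6 to 25.1), 16.8% of control-only regions (15.5 to 18.1), 25.1% of IMR90-only and 27.4% of Saos-2-only regions. These chromosomes make up 11.6% of the autosomal bins. On chromosome 19 lay 36 members (2.58%, 1.87 to 3.55), against 4.06% of control-only (3.41 to 4.82), 6.53% of IMR90-only and 10.1% of Saos-2-only regions, and 2.12% of the bins. The lower score limit was highest on chromosome 19, in the knockdown list as in H1 control and IMR90, and its part in these counts was not tested. In the upper 50% of members by score, 18.8% (16.1 to 21.7) lay on these chromosomes. Across the 22 autosomes, the density of members followed that of H1 H3K18ac regions with a Spearman correlation of 0.52, against 0.81 for the other knockdown regions, 0.86 for control-only, 0.95 for IMR90-only and 0.87 for Saos-2-only regions. With the density of IMR90 H3K18ac the correlations lay together, at 0.63 for members, 0.65 for the other knockdown regions, 0.59 for control-only, 0.65 for IMR90-only and 0.54 for Saos-2-only regions. These values share their bins and are given as descriptions.

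**Figure D5:**
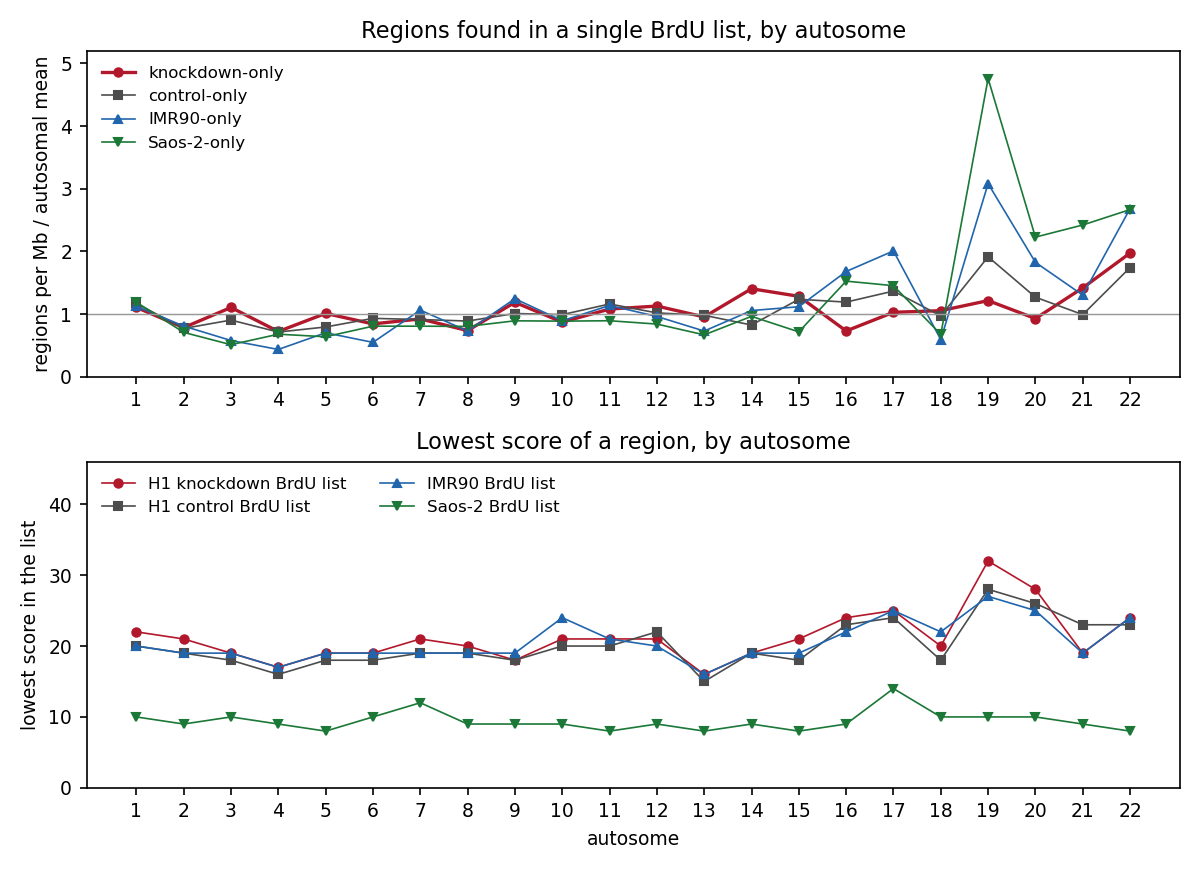
Upper panel, regions per Mb on each autosome divided by the autosomal mean of their set, for knockdown-only, control-only, IMR90-only and Saos-2-only regions. Lower panel, the lowest score of any region on each autosome in the 4 BrdU lists, whose scales may differ. On chromosome 19 the other sets stand further above their means than the members do above theirs of 0.529 per Mb, and there the knockdown list has its highest floor, 32.

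Chromosome ends held a smaller share of the members than of the other sets. The outer 5 Mb at either end of the autosomes, counted from the outermost bin with a region, contained 133 members (9.53%, 8.10 to 11.2), against 78 of the 266 autosomal other knockdown regions (29.3%, 24.2 to 35.1). They contained 14.2% of control-only (13 to 15.5), 25.2% of IMR90-only and 30.4% of Saos-2-only regions. The ends make up 8.12% of the bins. Members over 10 kb from any other BrdU list lay there in 7.42% of cases (6.02 to 9.12), and members within the upper 50% by score on their own chromosome in 9.96% (7.94 to 12.4).

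A smaller share of members than of the other single-list sets lay close to another of their own kind. Of the members 55 (3.71%, 2.86 to 4.79) had another member within 10 kb, and the closest pair was 700 bp apart. The share for regions scattered evenly over the bins was not computed. Of control-only regions 8.49% had another of their kind within 10 kb, of IMR90-only 15.9% and of Saos-2-only 21.7%, but these sets are larger. Reduced to their 1484 regions of highest score, they still had 6.74% (5.57 to 8.13), 11.9% (10.3 to 13.6) and 18% (16.1 to 20.0). No member lay within 1 kb of a shared knockdown region, which allows a share of up to 0.202% at 3 counts and 0.258% by the Wilson interval, and 11 lay within 10 kb. The share of all windows so near a shared knockdown region was not computed, so neither count is read as avoidance or excess. Of the 1390 tiles of 100 kb that held a member, 1301 held a single one, 86 held 2, 1 held 3 and 2 held 4.

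The 3 densest tiles show how members cluster where they do. On chromosome 11 at 44700001 to 44800000, 4 single-window members with scores of 31, 68, 89 and 31 lay in a tile without a region of any other BrdU list. The one at 44733401 to 44733500 was 100 bp from an H1 H3K18ac region, of which the tile held 7, beside 1 from IMR90. On chromosome 9 at 129400001 to 129500000, a member of 500 bp at 129422301 to 129422800 with a score of 215, among the 2 longest, was followed by members at 129425201, 129426001 and 129441701. This tile held 13 H1 H3K18ac regions, the nearest adjoining the member at 129425201 to 129425300, and 2 H1 control BrdU regions, but none from IMR90 or Saos-2 and no IMR90 H3K18ac. On chromosome 4 at 141100001 to 141200000 lay 3 members with scores of 26, 43 and 51, beside 1 H1 control region. Here IMR90 had more H3K18ac regions than H1, 9 against 3. The other 500 bp member lay on a sex chromosome. Among the 5 of 400 bp was that on chromosome 1 at 146942901 to 146943300, which had a score of 109 and lay 114.7 kb from the nearest region of another BrdU list.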

How the data were processed

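The deposited data used here are 6 region lists, 1 per library: BrdU pull-downs of H1 knockdown, H1 control, IMR90 and Saos-2 cells, and H3K18ac immunoprecipitations of H1 and IMR90 cells. Bowtie 0.12.7 and build hg19 are named in the submitters' processing notes. How regions were called, with what threshold and whether against the 6 inputs, is not given in the sources used here. The last column of each list is a score deposited by the authors without a stated meaning, and it was used to rank regions within a list. Depth is unknown, as no read counts were used.

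Overlap (1 bp or more), gaps and shares with Wilson 95% intervals came from Python 3.11.15, using numpy 2.4.6, pandas 2.3.3, scipy 1.17.1 and matplotlib 3.10.9, after a test of the code on simulated lists. All 100 bp windows of 5587 bins of 500 kb that held a region in any list gave the genome's share. Named regions were the 10 members of highest score, the top 5 with H1 H3K18ac, the 5 longest, the 5 nearest to another BrdU list (summarised by their number where not named), the 5 left out with the smallest overlap and the 3 densest tiles. The members and lists were chosen with earlier results of these data known. No hg19 sequence or gene annotation was used here, so the planned base composition, repeat, gene and gene list counts were not run.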

Additional observations from a re-analysis of the deposited data

How the results depend on the processing

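Of the alternatives to the values above, 31 left the value within its interval (a count within 1.5 times) and 26 moved it further. A reversal was not scored. The cause was not tested unless the alternative itself shows it. With every list, H3K18ac included, reduced to its upper 50% by score, there were 630 members, 71.8% of the 877 knockdown regions left. Of these members 15.1% had another BrdU list within 10 kb. H1 H3K18ac lay at 1.75% of them (0.978 to 3.10). It lay at 2.83% of the other knockdown regions (1.38 to 5.73, overlapping the interval of members) and 4.55% of control-only regions (3.29 to 6.26, not overlapping it). Merging regions within 10 kb, which lengthens them, gave H1 H3K18ac at 10.3% of members, 26.8% of other knockdown and 15.4% of control-only regions, IMR90 H3K18ac at 7.31% of members and another BrdU list within 10 kb of 18%. Within 1 kb the mark of H1 lay at 11.1%, 30.6% and 16.1% of these sets and that of IMR90 at 7.61% of members. Requiring a gap of over 1 kb or 10 kb left 78.7% or 67.6% of the knockdown list as members, and other lists of equal number left 87.5%. At 1 and 100 kb, 6.94% and 65.5% of members had another BrdU list near, and 0.404% and 20.8% another member. In the upper 50% of members by score 1.89% had another member within 10 kb and 18.8% of autosomal members lay on chromosomes 16, 17, 19, 20 and 22, where scores start higher; of members over 10 kb from other BrdU lists 10.0% did, and 7.42% lay in the outer 5 Mb. Single windows had a median score of 32. The count of members stayed between 1187 and 1536 under all other alternatives. Chromosome ends, rankings within a chromosome and the comparison sets under the alternatives were added once the data were known. No paired analysis was possible because each group had 1 library and the result comes from no test, and no library could be left out for the same reason. Alternatives on base composition, repeats and gene context were not run, as no hg19 sequence or annotation was used here. Single-library lists without depth cannot show whether a member would recur in a repeat of the knockdown.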

Other observations

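The lowest score per autosome in the knockdown list followed the density of H1 H3K18ac regions with a Spearman correlation of 0.60 across 22 autosomes, that of the H1 control list with 0.72, that of IMR90 with 0.58 and that of Saos-2 with -0.02. Whether the floor was set per chromosome was not tested.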
